A study of Homo sapiens with 24 samples.

Results

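Treating the myeloma line JJN3 with CX-5461 and panobinostat together for 24 h was set against vehicle, using 6 of the 24 libraries of the series, 3 of each kind, chosen by their labels. JJN3 is an established line of malignant human plasma cells and is labelled p53 null. The treated cells received CX-5461 at 500 nM together with panobinostat at 50 nM. The groups used for further comparison were JJN3 given panobinostat alone, JJN3 given CX-5461 alone, each at the dose just given, and the line MM1.S, labelled p53 wild type, given both drugs or vehicle at the same doses and time. Each of these groups also held 3 libraries. All cells grew in RPMI-1640 medium with serum, and 1 line of each p53 status stands for that status. The labels do not say whether replicates were separate cultures, so the p-values measure the spread between these libraries, which may be technical.

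CX-5461 blocks RNA polymerase I, the enzyme that copies the ribosomal RNA genes at the start of ribosome production, and also acts on DNA topoisomerase II. Panobinostat inhibits histone deacetylases (HDACs), enzymes that remove acetyl groups from histones. Plasma cells are built for antibody secretion: the factors IRF4, PRDM1 and XBP1 set up their programme, and their protein load makes them depend on the endoplasmic reticulum (ER) and the proteasome. The question behind the combination, per the series title and design, is which genes respond to the joint action of both drugs.

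RNA was read by 3′ RNA sequencing of polyadenylated transcripts, so ribosomal RNA itself was not measured. Total counts in the 6 libraries ranged from 4957977 to 6915633, and a count of 0 in 1 library allows up to 0.605 CPM (the share of a library that a gene takes, scaled as in the usual counts-per-million unit), taking 3 counts as the limit. That limit covers counting error only. Of 9 plasma cell markers 8 could be tested, and their summed level was 2341 to 2983 CPM with both drugs, against 3775 to 4964 CPM with vehicle. JCHAIN, the joining chain of antibodies, made up most of each sum and overlapped between the groups, at 2370, 2385 and 1736 CPM with both drugs, against 3251, 3456 and 2192 CPM with vehicle. SLAMF7 also overlapped, and PRDM1 was higher in every treated library. CD38, the remaining marker, had at most 2 counts in any JJN3 library. On the first principal component of the 12 JJN3 libraries, with 63.0% of the variance, libraries with panobinostat lay apart from those without. The 4 libraries numbered 2 lay apart on the second component, with 8.51% of the variance. Without the libraries numbered 2, 8 of the genes chosen for naming lost their call against vehicle and 3 gained one.

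Both drugs together changed a large part of the transcriptome of JJN3. Of 11411 genes tested, 2400 rose (21%) and 2072 fell (18.2%), in all 39.2%, at an adjusted p under 0.05 in edgeR's quasi-likelihood test with Benjamini-Hochberg adjustment, which is the source of every adjusted p here. At least 2-fold changes numbered 1325 rises and 611 falls. CPM are shares of the RNA of a whole culture, so fewer cells of a kind and less RNA per cell cannot be told apart. Scaling by library size alone, which shifted the median gene upward by 0.113 (log2), gave 2943 rises and 1539 falls. With the replicate number as a block 27.6% rose and 25.9% fell, in all 53.5%, with 3154 rises and 2950 falls. Without the libraries numbered 2 in any JJN3 group 4440 genes were called.

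**Figure D1:**
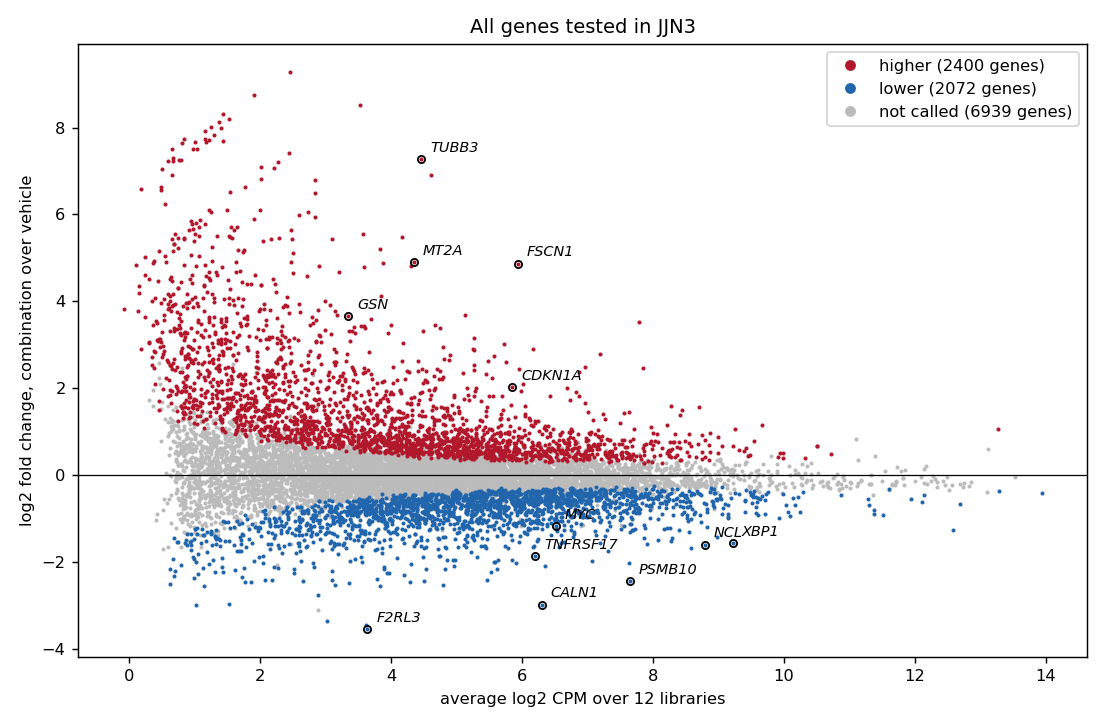
Log2 fold change of both drugs over vehicle in JJN3 (vertical axis) against average level as log2 CPM over the 12 JJN3 libraries (horizontal axis), 1 point per tested gene. Called genes are coloured, 2400 of them higher and 2072 lower with both drugs, and the others are grey.

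The largest rises were in genes low under vehicle, and HPCAL4, TUBB3 and APLP1 among them belong to a list of neuronal genes. By rule, the 12 largest rises and the 12 largest falls were taken among called genes whose mean log2 CPM reached 3 and whose groups did not overlap. HPCAL4 (NCBI Gene 51440), a neuronal calcium sensor, had 36.4, 19.2 and 32 CPM with both drugs, against 0, 0.182 and 0 CPM with vehicle. That is 542 counts against 1, a ratio of 517 with a 95% counting interval of 92.4 to 20460. TUBB3 (NCBI Gene 10381), a tubulin of neurons, had 103, 30 and 65.1 CPM with both drugs, against 0.199, 0.546 and 0.452 CPM with vehicle. The second treated library was the lowest for both genes and still far above every vehicle library.

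FSCN1 (NCBI Gene 6624), which bundles actin filaments, reached 217, 109 and 160 CPM with both drugs, against 6.18, 5.1 and 5.42 CPM with vehicle. Its log2 fold change was 4.87 ± 0.33 (SE, adjusted p = 1.24e-07). Its second treated library was again the lowest of the 3 and lay wholly above vehicle. Other rises on this list, by log2 fold change, were DACT3 (5.54), a Wnt pathway antagonist, APLP1 (5.47), kin of the amyloid precursor protein, SEZ6L2 (5.44), MAGEF1 (5.21), MT2A (4.89), NEURL1B (4.88), a ubiquitin ligase, SLC17A7 (4.82), a vesicular glutamate transporter, and CRIP2 (4.78). Of 43 neuronal genes listed, 17 passed the filter on low counts, 14 of them rose, 0 fell, and their median log2 fold change was 2.16. A gene near 0 under vehicle passes that filter only by rising, so this count says nothing about the other 26.

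The largest falls included a receptor, several transporters of the cell membrane and a proteasome subunit. F2RL3 (NCBI Gene 9002), a thrombin receptor, had 1.55, 2.55 and 1.73 CPM with both drugs, against 19.1, 23.3 and 25 CPM with vehicle, a log2 fold change of -3.55 ± 0.26. CALN1, a neuronal calcium-binding protein that was abundant here, had 19.8, 19 and 16.8 CPM with both drugs, against 179, 126 and 138 CPM with vehicle. Its log2 fold change was -2.99 ± 0.19, opposite in sign to the other genes of nerve cells named so far. The amino acid transporters SLC38A5 and SLC7A5 fell by 2.54 and 2.41 on the log2 scale. The remaining falls were KIAA1549L (-3.45), AGMAT (-3.36), GIPC3 (-2.56), RCN1 (-2.55), an ER calcium-binding protein, AVEN (-2.49), an inhibitor of apoptosis, MAGI2 (-2.47), a scaffold protein, PSMB10 (-2.44) and SLC16A14 (-2.43).

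A few genes had no count in any vehicle library, so their rises can only be bounded from below, against 3 counts over the group. CD40, a costimulatory receptor of B cells, had 173 counts with both drugs, at least 55.0-fold higher. DSP (desmoplakin) had 119 counts, at least 37.8-fold higher, COL1A1 (a collagen of fibroblasts) 98 counts, at least 31.2-fold higher, and MLXIPL, a glucose-sensing factor, 84 counts, at least 26.7-fold higher. HBA2, an alpha globin, had 165 counts with both drugs, against 1 with vehicle, a ratio of 157 with a counting interval of 27.9 to 6254.

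Single genes that mark other cell types thus appeared with both drugs, while most of their lists did not. Of 9 fibroblast and endothelial markers 2 had no count in any of the 6 libraries, and their summed level was 3.34 to 10.7 CPM with both drugs, against 0.728 to 1.79 CPM with vehicle. Of 10 T and NK cell markers 4 had no count, and the sums were 5.10 to 9.35 CPM with both drugs, against 1.09 to 3.59 CPM with vehicle. TRAC, the T cell receptor alpha constant gene, had 5.34, 3.92 and 7.10 CPM with both drugs, against 1.59, 0.546 and 1.81 CPM with vehicle, and rose by a log2 fold change of 2.02 ± 0.41. Erythroid markers summed to 526 to 892 CPM with both drugs, against 419 to 636 CPM with vehicle, nearly all of it beta globin (HBB), and 4 of 8 had no count. Myeloid markers summed to 3.34 to 8.16 CPM with both drugs, against 2.73 to 6.58 CPM with vehicle, with 4 of 10 at 0. Epithelial markers summed to 10.6 to 16.4 CPM with both drugs, against 14.0 to 15.8 CPM with vehicle, with 3 of 7 at 0. That sum hid opposite moves. EPCAM fell, at 7.31, 7.85 and 7.44 CPM with both drugs, against 14.7, 13.1 and 14.2 CPM with vehicle. CDH1, which was not tested, had 5.49, 1.57 and 6.75 CPM with both drugs, against 0.598, 0.364 and 0.903 CPM with vehicle. KRT18 was also higher in every treated library, but was not called. The part of other cells in any result was not tested.

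Genes commonly raised by HDAC inhibitors rose. Of 27 such genes tested, from 31 listed, 15 rose and 2 fell, beside 21% and 18.2% of all genes. Their median log2 fold change was 0.68, beside 0.00 over all genes. Members near 0 under vehicle pass the filter on low counts only by rising. SYT11, a synaptotagmin, had 85.4, 69.7 and 69.6 CPM with both drugs, against 5.98, 7.1 and 4.52 CPM with vehicle, a log2 fold change of 3.68 ± 0.23. GSN, the actin-severing protein gelsolin, had 17.9, 17.9 and 18 CPM with both drugs, against 1.2, 1.64 and 1.35 CPM with vehicle, a log2 fold change of 3.66 ± 0.26. In both genes every treated library was at least several times higher than any vehicle library.

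SAT1, which breaks down polyamines, had 383, 190 and 231 CPM with both drugs, against 45.4, 58.4 and 40.3 CPM with vehicle. The 2 genes of this list that fell were CTPS1, which makes CTP (-1.62 ± 0.15), and the histone H2BC12 (-1.48 ± 0.38). Among 16 linker and variant histones 5 rose and 3 fell, beside 21% and 18.2% of all genes. H3-3B, a replication-independent histone H3, had 1288, 1126 and 1118 CPM with both drugs, against 467, 583 and 544 CPM with vehicle, whereas H2AX, the damage-marking histone, changed by -0.50 ± 0.14 on the log2 scale.

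Metallothioneins, small proteins that bind zinc and copper, rose in 3 of the 5 tested of 12 listed. Members near 0 under vehicle pass the filter only by rising, so this count says nothing about the others, and near-identical copies make single members uncertain. MT2A had 61.6, 35.9 and 43.5 CPM with both drugs, against 1.2, 1.27 and 2.11 CPM with vehicle, and MT1X rose by 3.15 ± 0.42 on the log2 scale. Of the deacetylases themselves, 7 of 16 rose and 1 fell, beside 21% and 18.2% of all genes. HDAC11 rose by 2.55 ± 0.35 and HDAC9 by 1.49 ± 0.17, whereas HDAC7, a class II enzyme, fell by 1.31 on the log2 scale (SE 0.15). HDAC1 had a log2 fold change of 0.07 ± 0.13 and HDAC2 of -0.28 ± 0.15, neither called (adjusted p = 0.686 and 0.152), although HDAC2 passed with the replicate block (adjusted p = 0.0305). Of 9 acetyltransferase genes 4 fell and 1 rose, beside 18.2% and 21% of all genes. KAT2A fell by 1.04 and KAT6B by 1.10.

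Of 6 tested inhibitors of cyclin-dependent kinases (CDKs), which hold cells in G1, 4 rose and 1 fell, beside 21% and 18.2% of all genes. With the replicate block 4 rose and 2 fell, beside 27.6% and 25.9%. CDKN1A (NCBI Gene 1026), which encodes p21, a target of p53 that HDAC inhibitors can also induce, had 121, 105 and 92.8 CPM with both drugs, against 22.1, 29.5 and 26.3 CPM with vehicle. All treated libraries were above all vehicle libraries, with a log2 fold change of 2.03 ± 0.19 (adjusted p = 6.82e-07). CDKN2D (NCBI Gene 1032), which encodes p19 and blocks CDK4 and CDK6, had 133, 136 and 101 CPM with both drugs, against 63.6, 50.8 and 53.9 CPM with vehicle. Its log2 fold change was 1.13 ± 0.15. CDKN2B and CDKN2C rose by 1.54 ± 0.22 and 0.80 ± 0.16. CDKN2A, which encodes p16 and ARF, fell to 26.4, 25.7 and 28 CPM with both drugs, against 65.8, 51.9 and 52.1 CPM with vehicle.

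Promoters are shown because GC boxes, the sites of SP1-family factors, are the elements through which HDAC inhibitors are known to act on CDKN1A. Those of CDKN2B and CDKN2C, which also rose, and of CDKN2A are not shown. The promoters given are of CDKN1A and CDKN2D, the rising inhibitors that the naming rule takes. They are the 250 bases before each gene's start from RefSeq on GRCh38.p14, at chr6:36678464-36678713 on the plus strand for CDKN1A and chr19:10568980-10569229 on the minus strand for CDKN2D, printed 5′ to 3′. Capitals mark the motif GGGCGG or its reverse complement CCGCCC.
CDKN1A: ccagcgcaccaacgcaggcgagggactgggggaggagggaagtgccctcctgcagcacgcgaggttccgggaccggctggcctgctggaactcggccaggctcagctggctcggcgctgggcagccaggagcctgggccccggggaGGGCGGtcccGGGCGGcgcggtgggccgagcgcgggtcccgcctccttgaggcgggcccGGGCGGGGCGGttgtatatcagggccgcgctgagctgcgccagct
CDKN2D: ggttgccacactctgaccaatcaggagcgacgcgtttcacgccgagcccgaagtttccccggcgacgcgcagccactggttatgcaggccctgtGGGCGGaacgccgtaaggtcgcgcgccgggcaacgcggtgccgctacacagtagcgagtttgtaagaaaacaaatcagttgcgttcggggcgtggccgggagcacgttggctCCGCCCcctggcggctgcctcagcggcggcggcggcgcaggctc
CDKN1A held 4 matches, the last 2 overlapping by 1 base, and CDKN2D held 2. Of 35116 RefSeq promoter windows of this length 42.6% held at least 1 match, 24.3% at least 2 and 7.63% at least 4. A match describes the letters in the window and is not evidence of binding, and the builds in the submitters' processing notes differ from this one.

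**Figure D2:**
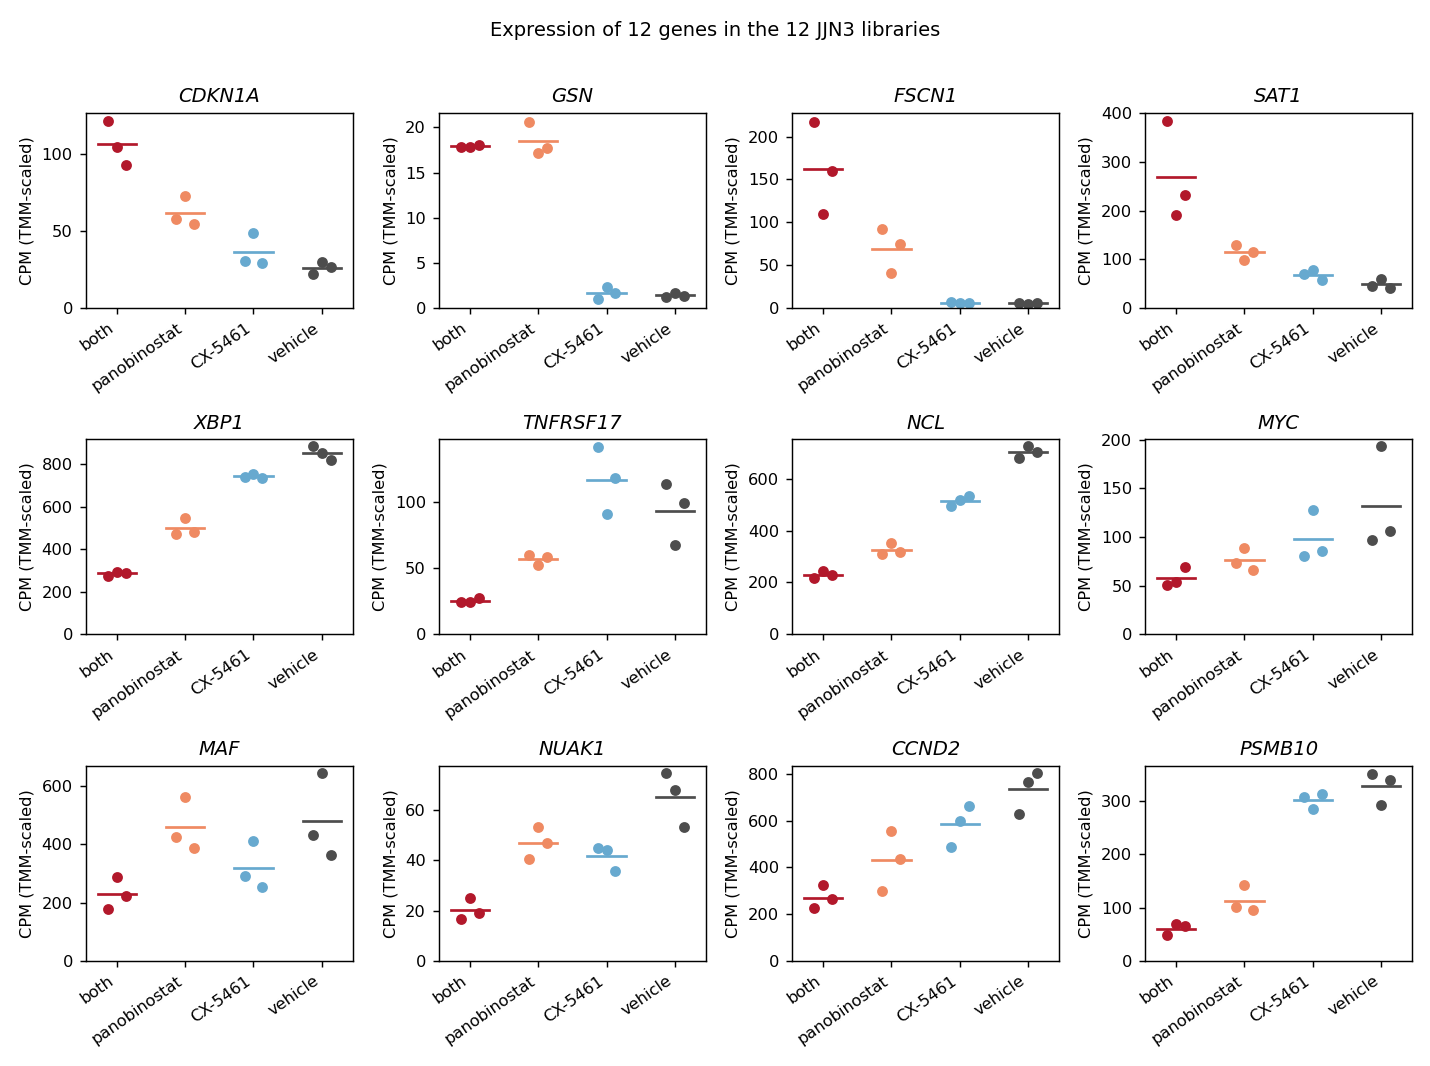
CPM of 12 genes in each JJN3 library, with both drugs leftmost, then panobinostat, CX-5461 and vehicle. Points are libraries, horizontal lines are means of 3, and every vertical axis starts at 0. CDKN1A, GSN, FSCN1 and SAT1 are higher with both drugs than with vehicle, and the other 8 genes are lower.

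MYC and genes it is known to drive fell. MYC (NCBI Gene 4609), a growth-promoting transcription factor, had 51.2, 54.2 and 69.1 CPM with both drugs, against 97, 193 and 106 CPM with vehicle. The groups did not overlap, and the log2 fold change was -1.18 ± 0.25 (adjusted p = 0.00165). Its paralogue MYCL rose by 1.29 ± 0.22, and the partner MAX had a log2 fold change of 0.32 ± 0.13 that missed the threshold (adjusted p = 0.0529) but passed with the block (0.00342). Of 43 MYC targets tested 30 fell and 1 rose, beside 18.2% and 21% of all genes. Their median log2 fold change was -0.87. CAD, which starts pyrimidine synthesis, fell by 1.88 (SE 0.20), the deepest fall of the list. The exception was ODC1, the first enzyme of polyamine synthesis, which had 499, 236 and 389 CPM with both drugs, against 233, 227 and 205 CPM with vehicle.

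Ribosome biogenesis genes, whose products process ribosomal RNA and assemble subunits in the nucleolus, fell. Of 94 tested 65 fell and 0 rose, beside 18.2% and 21% of all genes, and the median log2 fold change was -0.68. NCL (NCBI Gene 4691), the nucleolar protein nucleolin, had 218, 243 and 230 CPM with both drugs, against 678, 725 and 703 CPM with vehicle. Replicates lay close together and the groups far apart, with a log2 fold change of -1.61 ± 0.11 (adjusted p = 2.56e-08). BOP1, a factor for the large subunit, fell by 1.28. NPM1, nucleophosmin, had 978, 953 and 994 CPM with both drugs, against 1464, 1374 and 1389 CPM with vehicle.

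Genes of RNA polymerase I, the enzyme CX-5461 blocks, were mixed, with 7 of 21 lower and 3 higher, beside 18.2% and 21% of all genes. With the replicate block 10 were lower and 3 higher, beside 25.9% and 27.6%. UBTF, which binds ribosomal RNA genes and holds them active, had 45.2, 47.9 and 60.1 CPM with both drugs, against 132, 108 and 162 CPM with vehicle, a log2 fold change of -1.39 ± 0.15. The subunit POLR1C fell by 0.96. The catalytic subunit POLR1A had a log2 fold change of -0.72 ± 0.30 (adjusted p = 0.0702, or 0.0351 with the block). The rises were in POLR2E, POLR2K and POLR2L, subunits shared by all 3 nuclear polymerases, with POLR2L at 1.10 ± 0.20. Leaving out the third vehicle library or scaling by library size alone gave 4 falls. Of the topoisomerase genes, TOP2A and TOP2B had log2 fold changes of 0.03 ± 0.11 and -0.02 ± 0.11 (adjusted p = 0.869 and 0.886), while mitochondrial TOP1MT fell by 1.31.

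Cytosolic ribosomal proteins shifted little, and the verdict on them turned on the fit. Of 78 tested 10 fell and 0 rose, or 12.8% against the background of 18.2%, with a median log2 fold change of -0.21. With the replicate block 49 fell and 1 rose, beside the blocked background of 25.9%. Leaving out 1 library gave 4 to 14 falls, and leaving out the libraries numbered 2 gave 14. Without the first vehicle, the second vehicle, the first treated or the third treated library 4, 6, 4 and 4 fell. RPSA had 637, 605 and 509 CPM with both drugs, against 913, 833 and 762 CPM with vehicle. Near-identical pseudogenes make single members uncertain. Host transcripts of small nucleolar RNAs fell in 6 of 15, or 12 with the block, and rose in 0. SNHG8 had 302, 353 and 307 CPM with both drugs, against 561, 675 and 501 CPM with vehicle.

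**Figure D3:**
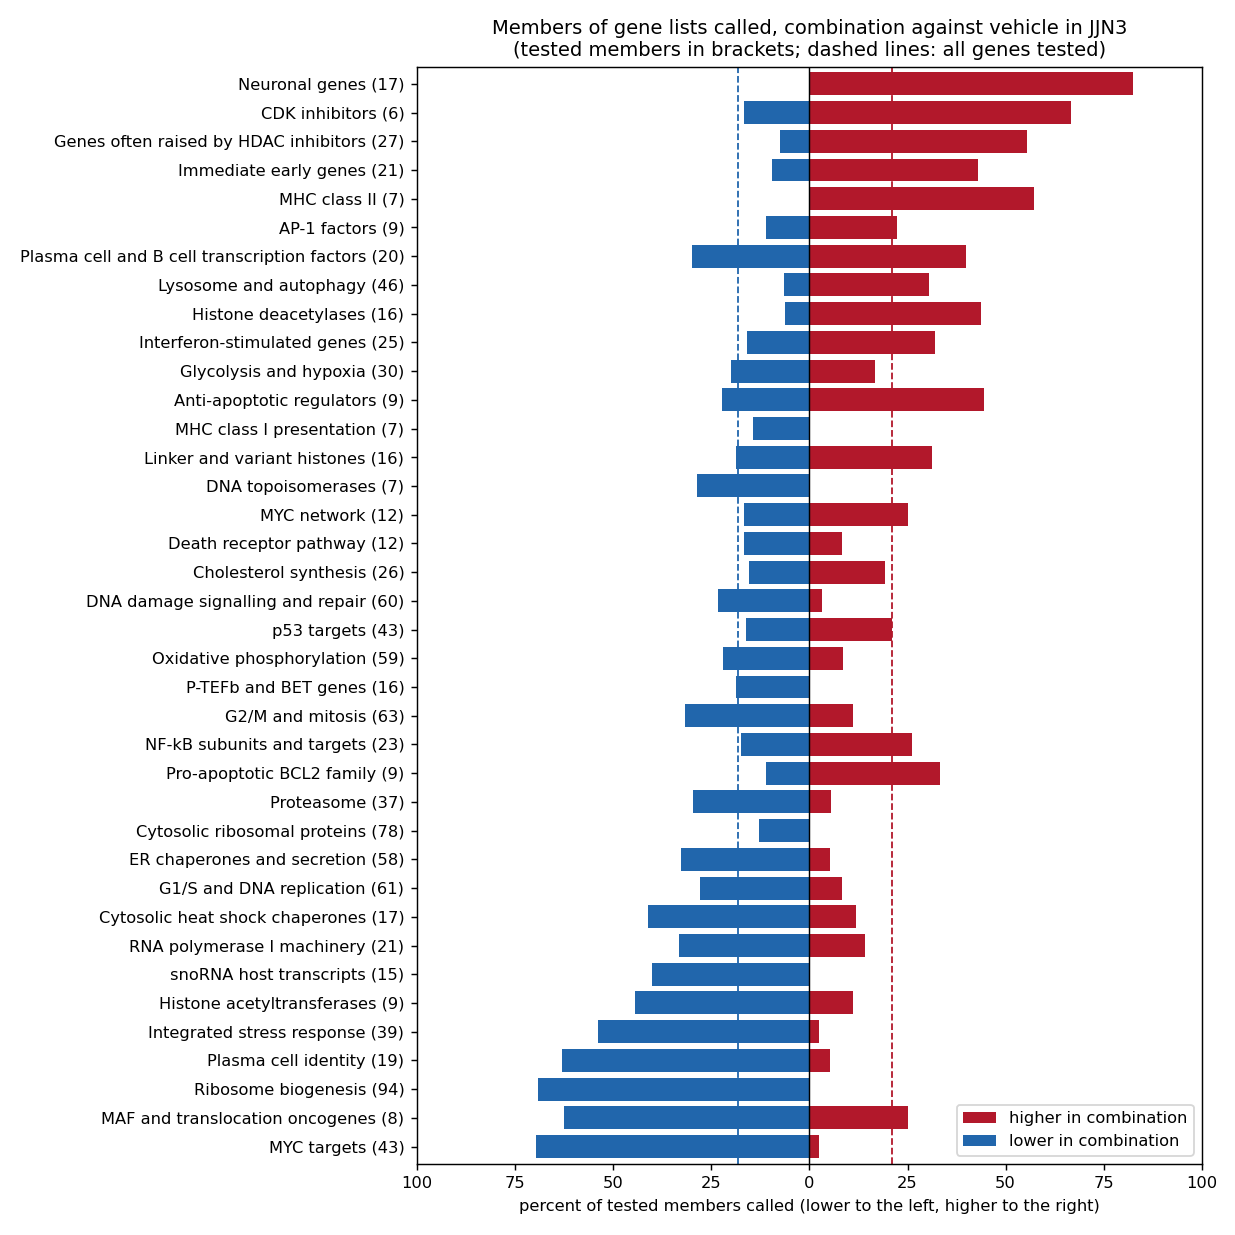
Percent of tested members of each list called lower (left) or higher (right) with both drugs than with vehicle, for lists with at least 6 members tested. Dashed lines mark 18.2% lower and 21% higher over all genes. Ribosome biogenesis and MYC targets extend farthest to the left. The bar of neuronal genes covers 17 of 43 listed, those that passed the filter on low counts, and genes near 0 under vehicle pass it only by rising.

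Plasma cell genes fell. Among 19 genes of plasma cell identity there were 12 falls and 1 rise, beside 18.2% and 21% of all genes. Their median log2 fold change was -0.64. TNFRSF17 (NCBI Gene 608), the surface receptor BCMA, had 24.6, 24.3 and 27.7 CPM with both drugs, against 114, 67.4 and 99.1 CPM with vehicle. Its log2 fold change was -1.87 ± 0.19 (adjusted p = 1.32e-06). MZB1, a chaperone for antibody assembly, had 69.2, 86.3 and 65.4 CPM with both drugs, against 252, 256 and 238 CPM with vehicle. SDC1, syndecan 1 or CD138, had 44.4, 57.3 and 50.4 CPM with both drugs, against 101, 101 and 115 CPM with vehicle. In none of these genes did treated and vehicle libraries overlap. SEC11C, a subunit of the signal peptidase, rose by 0.71 ± 0.13.

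Their transcription factors parted ways: of 20 factors of plasma and B cells 8 rose and 6 fell, beside 21% and 18.2% of all genes. XBP1 (NCBI Gene 7494), which expands the secretory apparatus, had 277, 295 and 291 CPM with both drugs, against 887, 852 and 819 CPM with vehicle, a log2 fold change of -1.57 ± 0.11 (adjusted p = 2.56e-08). IRF4, on which myeloma cells depend, had 85.2, 73.2 and 104 CPM with both drugs, against 189, 183 and 257 CPM with vehicle. The coactivator POU2AF1 fell by 1.03 and the Ikaros-family factor IKZF3 by 0.65. These falls held whichever library was left out.

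The factors that rose included some that are low in mature plasma cells. BCL6, the germinal centre repressor, had 18.8, 19.6 and 16.1 CPM with both drugs, against 3.39, 3.64 and 1.96 CPM with vehicle. ID2, an inhibitor of helix-loop-helix factors, rose by 2.76 ± 0.26. PRDM1, which represses the B cell programme in plasma cells, rose by 0.46 ± 0.15 (adjusted p = 0.0201), but missed the threshold without the first vehicle, the second vehicle or the first treated library (0.0636, 0.0828 and 0.103). IKZF1 overlapped between the groups, and its call (adjusted p = 0.0422) was lost without the second vehicle, the first treated or the third treated library (0.186, 0.0951 and 0.179). Without the second vehicle or the first treated library 5 factors rose.

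MAF, an oncogene activated in a subset of myelomas, and genes it drives fell. MAF had 177, 288 and 222 CPM with both drugs, against 430, 645 and 364 CPM with vehicle, a log2 fold change of -1.07 ± 0.24. Its target CCND2, a G1 cyclin, had 225, 324 and 264 CPM with both drugs, against 631, 768 and 806 CPM with vehicle. The targets NUAK1, a kinase, and CCR1, a chemokine receptor, fell by 1.69 and 2.11. The integrin gene ITGB7, another MAF target, had 474, 467 and 667 CPM with both drugs, against 480, 459 and 606 CPM with vehicle, and was not called (adjusted p = 0.827). In all, 5 of 8 genes of this list fell and 2 rose, beside 18.2% and 21% of all genes. The rise of MAFA (0.62 ± 0.22, adjusted p = 0.0315) was lost without the second vehicle library, the third one or the first treated one (0.13, 0.118 and 0.159). CCND3 (0.53 ± 0.14) and MAFA missed the threshold without the libraries numbered 2 (0.0514 and 0.194).

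Genes of the integrated stress response, which cells switch on through ATF4 when protein synthesis or amino acids run short, fell. Of 39 tested 21 fell and 1 rose, beside 18.2% and 21% of all genes. Their median log2 fold change was -0.58. ATF4 had 118, 152 and 204 CPM with both drugs, against 227, 253 and 377 CPM with vehicle. Its log2 fold change of -0.86 ± 0.26 (adjusted p = 0.017) missed the threshold without the third vehicle library, the first treated library or the libraries numbered 2 (0.0771, 0.0718 and 0.18). PYCR1, an enzyme of proline synthesis, had 139, 171 and 144 CPM with both drugs, against 336, 381 and 349 CPM with vehicle. SLC7A5, the main carrier of leucine, had 11.7, 18.8 and 18.5 CPM with both drugs, against 49.6, 141 and 68.6 CPM with vehicle. DDIT3, which encodes the stress factor CHOP, was low in both groups, at 5.63, 5.69 and 4.33 CPM with both drugs, against 6.58, 7.47 and 5.27 CPM with vehicle, and was not called (adjusted p = 0.377).

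In the ER, 19 of 58 chaperone and secretion genes fell and 3 rose, or 31 and 8 with the block. Library size alone gave 13 and 8. Without the block 18.2% of all genes fell and 21% rose, and with it 25.9% and 27.6%. HSPA5, the ER chaperone BiP, had 588, 983 and 518 CPM with both drugs, against 1304, 1496 and 1377 CPM with vehicle, the second treated library being the highest of its group and still below vehicle. The oxidases of disulfide formation moved apart: ERO1A fell by 0.87, and ERO1B, at a low level, rose by 2.09 ± 0.43. Of 37 proteasome genes 11 fell and 2 rose, or 18 and 3 with the block. PSMB10, a catalytic subunit of the immunoproteasome, had 47.7, 68.7 and 64.4 CPM with both drugs, against 350, 292 and 339 CPM with vehicle. PSMB5, the subunit that bortezomib binds, had 77.6, 66.5 and 67.3 CPM with both drugs, against 133, 132 and 143 CPM with vehicle. Cytosolic heat shock chaperones fell in 7 of 17 and rose in 2, with HSP90AA1 at -0.62 ± 0.14 and HSPB1, a small heat shock protein, at 1.59 ± 0.16.

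Cell cycle genes moved in both directions, to be read beside the 18.2% of all genes that fell and the 21% that rose. Of 61 genes of G1/S and DNA replication 17 fell and 5 rose, and 28 fell without the second vehicle library. CDC25A, the phosphatase that opens S phase, had 39.2, 50.2 and 44.8 CPM with both drugs, against 101, 74.8 and 112 CPM with vehicle, while the replication kinase CDC7 rose by 0.88 ± 0.18. E2F1 overlapped between the groups, and its fall (-0.62 ± 0.19, adjusted p = 0.0151) was lost without the third vehicle library (0.112). Of 63 genes of G2/M and mitosis 20 fell and 7 rose. Without the third vehicle library 12 fell, without the first vehicle or first treated library 4 rose, and library size alone gave 11 falls and 8 rises.

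MKI67, the proliferation marker Ki-67, had 129, 188 and 161 CPM with both drugs, against 232, 269 and 324 CPM with vehicle. UBE2C, a ubiquitin-conjugating enzyme of mitotic exit, fell by 0.77, whereas HMMR and PTTG1, which encodes securin, rose by 0.87 ± 0.17 and 0.71 ± 0.12. Of 60 genes of DNA damage signalling and repair 14 fell and 2 rose, with 23.3% lower beside the background of 18.2%. Leaving out single libraries gave 6 to 15 falls. The count was 7 and 8 without the first and the third vehicle library. Among treated libraries, leaving out the first, the second or the third gave 8, 9 and 6. With the libraries numbered 2 left out it was 16, and library size alone gave 6. NBN, part of the double-strand break sensor, had 25.3, 27.9 and 26.8 CPM with both drugs, against 53, 49.5 and 47.3 CPM with vehicle, and PARP1 fell by 0.53.

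Regulators of apoptosis moved on both sides, in small lists to be read beside the 21% of all genes that rose and the 18.2% that fell. Of the pro-apoptotic members of the BCL2 family 3 of 9 rose and 1 fell. BMF had 74.5, 72.2 and 88.3 CPM with both drugs, against 34.7, 31.3 and 29.8 CPM with vehicle. BCL2L11 (BIM) rose by 0.67 ± 0.16. HRK had 76 counts with both drugs, against 1 with vehicle, a ratio of 72.5 with a counting interval of 12.6 to 2901, and BID fell by 1.22. BBC3 (PUMA) had a log2 fold change of -0.50 ± 0.20 that just missed the threshold (adjusted p = 0.0537) and passed with the block (2.14e-05). Of 9 anti-apoptotic regulators 4 rose. They include MCL1, at 1132, 1165 and 1145 CPM with both drugs, against 728, 952 and 754 CPM with vehicle, and BCL2, at 234, 193 and 243 CPM with both drugs, against 164, 161 and 151 CPM with vehicle. The 2 that fell, BIRC5 and XIAP, lost their calls without the third vehicle library (adjusted p = 0.0663 and 0.0603) or the first treated one (0.0656 and 0.0878), and XIAP also without the second vehicle or the third treated library (0.0588 and 0.0572).

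Genes known as p53 targets rose and fell at shares near those of all genes. Of 43 tested 9 rose and 7 fell, beside 21% and 18.2% of all genes, or 11 and 15 with the block, beside 27.6% and 25.9%, with a median log2 fold change of -0.09. Besides CDKN1A, ZMAT3 had 61.2, 62.2 and 52.1 CPM with both drugs, against 27.1, 31.3 and 23.9 CPM with vehicle. FAS, a death receptor, had 5.2, 8.83 and 5.89 CPM with both drugs, against 25.3, 29 and 19.9 CPM with vehicle. MDM2, the ligase that removes p53, had a log2 fold change of -0.39 ± 0.16 (adjusted p = 0.06, or 0.00374 with the block).

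Other lists held divided changes, to be read beside the 21% of all genes that rose and the 18.2% that fell (27.6% and 25.9% with the block). NF-kB subunits and targets rose in 6 of 23 and fell in 4, or in 7 and 9 with the block. NFKB1, which encodes the p50 subunit, had 16.7, 18.4 and 13.3 CPM with both drugs, against 56.2, 48.8 and 47.6 CPM with vehicle. Interferon-stimulated genes rose in 8 of 25 and fell in 4, or 2 without the first treated library. IFI6 rose by 2.25 ± 0.30, and IFI16, a DNA sensor, fell by 0.94. MHC class II genes, which present antigen to T cells, rose in 4 of the 7 tested of 13 listed and fell in 0. HLA-DRB1 was at 0.67 ± 0.12, although HLA genes share reads. HLA-DRA had at most 7 counts in any JJN3 library and was not tested. CIITA, the master regulator of class II genes, had a log2 fold change of 0.65 ± 0.34 (adjusted p = 0.144, or 0.00701 with the block).

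Immediate early genes rose in 9 of 21 and fell in 2. IER2 had 628, 530 and 630 CPM with both drugs, against 289, 300 and 351 CPM with vehicle. Lysosome and autophagy genes rose in 14 of 46 and fell in 3, or 23 and 7 with the block. CTSF, a lysosomal protease, had 116, 92 and 101 CPM with both drugs, against 40.8, 54.4 and 40.9 CPM with vehicle. Oxidative phosphorylation genes fell in 13 of 59 and rose in 5, or 26 and 8 with the block, with 21 falls without the second vehicle library and 7 falls and 8 rises by library size alone. NDUFV2, a subunit of complex I, fell by 0.89. Glycolysis and hypoxia genes rose in 5 of 30 and fell in 6, shares near those of all genes, or 9 and 10 with the block. GAPDH had 2151, 2018 and 2711 CPM with both drugs, against 4849, 3444 and 4723 CPM with vehicle, and HK1, a hexokinase, rose by 1.61 ± 0.16.

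Each drug alone was read against the same vehicle libraries, so the comparisons share them and are given side by side. Panobinostat alone changed 26% of genes: 1716 rose (15%) and 1248 fell (10.9%). CX-5461 alone changed 0% by edgeR (633 genes at an unadjusted p under 0.05), or 1.38% with the replicate block, which is 157 genes. For CDKN1A the log2 fold change was 2.03 ± 0.19 with both drugs, 1.23 ± 0.19 with panobinostat and 0.46 with CX-5461. For XBP1 the values were -1.57 ± 0.11 with both drugs, -0.77 ± 0.10 with panobinostat and -0.19 with CX-5461. NCL had -1.61 ± 0.11 with both drugs, -1.10 ± 0.10 with panobinostat and -0.45 with CX-5461. GSN differed from these, at 3.66 with both drugs, 3.71 with panobinostat and 0.21 with CX-5461, as did GAPDH, at -0.92 with both drugs, -0.76 with panobinostat and -0.78 with CX-5461.

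**Figure D4:**
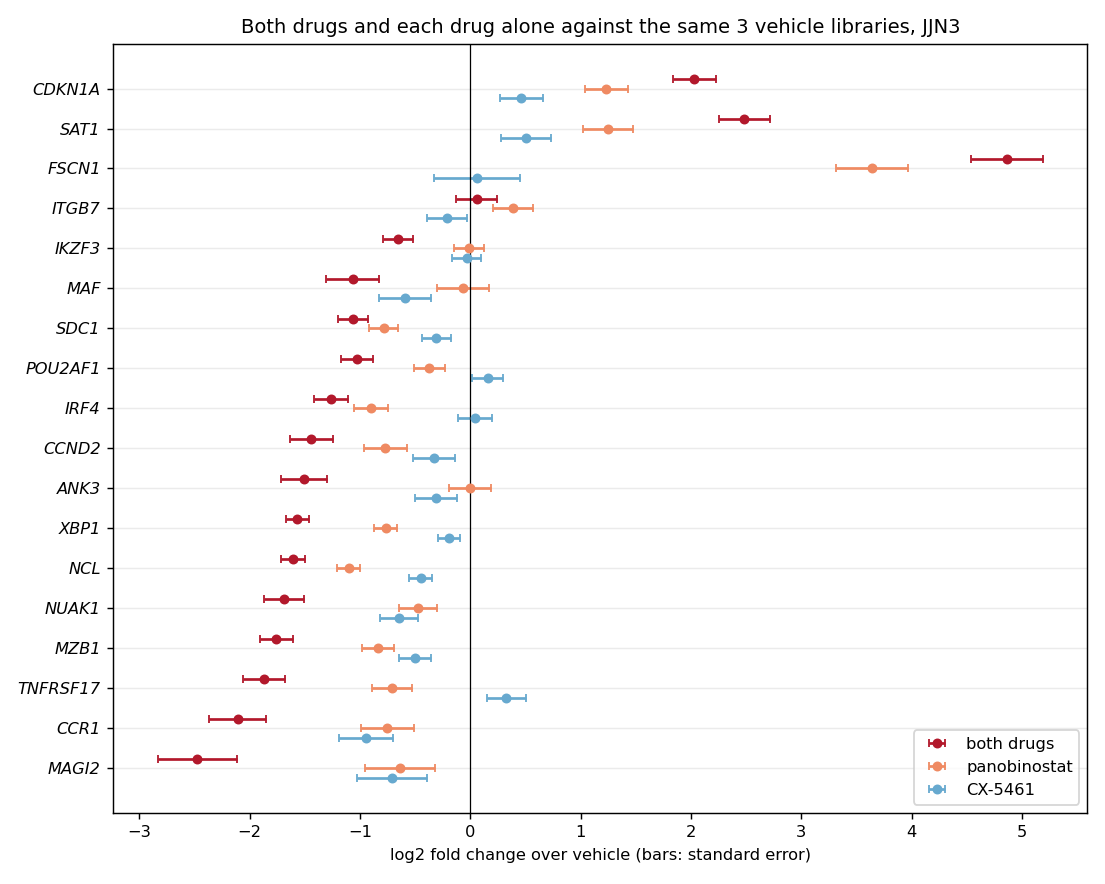
Log2 fold change over vehicle ± SE for 18 genes in JJN3 with both drugs, with panobinostat and with CX-5461. Both drugs lie farther from 0 than either drug alone in every gene but ITGB7, and FSCN1 is at 4.87 with both drugs, 3.64 with panobinostat and 0.06 with CX-5461.

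Among lists, MYC targets fell in 30 of 43 with both drugs and in 23 with panobinostat, and 0 were called with CX-5461 (Benjamini-Hochberg, edgeR), whose median log2 fold change over them was -0.22. Ribosome biogenesis genes fell in 65 of 94 with both drugs, in 45 with panobinostat and in 0 with CX-5461, with medians of -0.68, -0.49 and -0.19. Integrated stress response genes fell in 21 of 39 with both drugs and in 20 with panobinostat. Plasma cell identity genes fell in 12 of 19 with both drugs and in 8 with panobinostat. Tested directly against panobinostat, both drugs gave lower levels for 1 of 43 MYC targets, 1 of 94 ribosome biogenesis genes, 0 of 39 integrated stress response genes and 4 of 19 members of the plasma cell list, or 10, 14, 6 and 8 with the replicate block, beside 0.719% of all genes lower, or 6.48% with the block. No member of these lists was higher in either fit except 1 ribosome biogenesis gene and 1 integrated stress response gene with the block.

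Over all genes that direct test called 103 (0.903%), 21 higher (0.184%) and 82 lower (0.719%) with both drugs than with panobinostat. With the replicate block it called 1399 (12.3%), 659 higher (5.78%) and 740 lower (6.48%). The smaller count rests on single libraries: without the first combination library it was 0, and without the second panobinostat library 22. Library size alone gave 59 higher and 56 lower. With the libraries numbered 2 left out 68 genes were called.

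Plasma cell genes stood among those lower with both drugs. TNFRSF17 had 24.6, 24.3 and 27.7 CPM with both drugs, against 60, 52.5 and 58.6 CPM with panobinostat, a log2 difference of -1.16 ± 0.19 (adjusted p = 0.00781). XBP1 had 277, 295 and 291 CPM with both drugs, against 473, 546 and 483 CPM with panobinostat, a log2 difference of -0.80 ± 0.10 (adjusted p = 0.00353). Both groups were tight and did not overlap, and both genes lost their calls only without the first combination library (adjusted p = 0.073 and 0.0531). IKZF3 had 101, 113 and 149 CPM with both drugs, against 186, 186 and 194 CPM with panobinostat, where its log2 fold change over vehicle was -0.01 ± 0.13. Its call against panobinostat (adjusted p = 0.0308) was lost without any 1 of 5 of those 6 libraries.

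The largest named differences below 0 were those of MAGI2 (-1.83 ± 0.37), KIAA1549L (-1.82 ± 0.38), ANK3 (-1.51 ± 0.21) and CD200R1 (-1.47 ± 0.24). The call of MAGI2 was also lost without the second panobinostat or the third combination library (adjusted p = 0.114 and 0.0844), and that of KIAA1549L without these (0.156 and 0.116) or the third panobinostat library (0.0613). ANK3, ankyrin G, which ties membrane proteins to the cytoskeleton, had 5.63, 6.67 and 7.1 CPM with both drugs, against 17.6, 16.5 and 21 CPM with panobinostat and 16.5, 22.4 and 16.3 CPM with vehicle. Its panobinostat and vehicle libraries overlapped, and its combination libraries lay below both. MAF had 177, 288 and 222 CPM with both drugs, against 425, 563 and 386 CPM with panobinostat, which missed the threshold (adjusted p = 0.0647) and passed with the block (1.39e-08). Its target NUAK1 had 16.6, 25.1 and 19.2 CPM with both drugs, against 40.6, 53.4 and 46.9 CPM with panobinostat (adjusted p = 0.00375).

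Genes higher with both drugs than with panobinostat included MLXIPL (2.46 ± 0.47), at a low level, NDRG4 (1.37 ± 0.30), SAT1 (1.24 ± 0.22), FSCN1 (1.23 ± 0.26) and PPM1N (1.05 ± 0.24). SAT1 had 383, 190 and 231 CPM with both drugs, against 129, 98.4 and 114 CPM with panobinostat. CDKN1A, at 57.3, 72.2 and 54.2 CPM with panobinostat, was higher with both drugs by 0.80 ± 0.18 (adjusted p = 0.0483). NCL, at 310, 352 and 318 CPM with panobinostat, was lower with both drugs by -0.51 ± 0.10 (adjusted p = 0.029). Every call of this comparison was lost without the first combination library, and no gene was higher without the second panobinostat library. CDKN1A lost its call without any 1 of the 6 libraries (adjusted p = 0.0724 to 0.246), and NCL without any but the second combination library (0.0563 to 0.195). Ribosomal protein genes had a median log2 difference of -0.20 between both drugs and panobinostat. None of the 78 was called, or 31 lower with the block, but 76 of the 78 lay below 0, beside 49.1% of all genes.

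Additivity was examined by taking from the log2 fold change of both drugs the sum of the 2 single-drug values. By edgeR 0% of genes departed (0 genes, 564 at an unadjusted p under 0.05). DESeq2 called 19 genes and limma-voom 0. With the replicate block 105 departed (0.92%), 14 above (0.123%) and 91 below additivity (0.797%). The values that follow come from the blocked fit. TNFRSF17 lay lowest of the panel, at -1.50 ± 0.16 (adjusted p = 4.43e-06): it had a log2 fold change of -1.86 with both drugs, -0.69 with panobinostat and 0.33 with CX-5461. XBP1 departed by -0.60 ± 0.11 (adjusted p = 0.00207) and POU2AF1 by -0.82 ± 0.17 (adjusted p = 0.0186). FSCN1 departed upward by 1.20 ± 0.25 and GAPDH by 0.60 ± 0.12. GAPDH fell with each drug alone, and its fall with both drugs was smaller than their sum. For CDKN1A the departure was 0.37 ± 0.19, which was not called (adjusted p = 0.459).

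The same treatment in MM1.S was compared in 1 fit of all 24 libraries, in which a positive difference means a higher log2 fold change in JJN3. Of 12872 genes 32.8% differed between the lines, 2422 with a positive (18.8%) and 1801 with a negative difference (14%). Cell line and p53 status cannot be told apart here. NCL showed a log2 fold change of -1.60 in JJN3 and -1.64 in MM1.S, a difference of 0.04 ± 0.15 (adjusted p = 0.893). CDKN1A had 2.04 in JJN3 and 1.57 in MM1.S, a difference of 0.47 ± 0.23 (adjusted p = 0.128).

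Plasma cell genes fell less in JJN3 than in MM1.S. TNFRSF17 averaged 25.7 ± 1.62 CPM with both drugs and 93.6 ± 24.4 CPM with vehicle in JJN3, and 2.80 ± 1.08 CPM with both drugs and 472 ± 49.6 CPM with vehicle in MM1.S (SD, n = 3 each). The difference in log2 fold change was 5.50 ± 0.30 (adjusted p = 3.92e-14). XBP1 averaged 289 ± 9.05 CPM with both drugs and 853 ± 32.7 CPM with vehicle in JJN3, and 135 ± 6.85 CPM with both drugs and 2487 ± 139 CPM with vehicle in MM1.S. Of 21 identity genes 15 had a positive difference and 0 a negative one, beside the 18.8% and 14% of all genes. PRDM1 had a log2 fold change of 0.47 in JJN3, against -2.97 in MM1.S.

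MYC averaged 58.5 ± 9.02 CPM with both drugs and 132 ± 51.7 CPM with vehicle in JJN3, and 1.66 ± 0.329 CPM with both drugs and 42.4 ± 9.70 CPM with vehicle in MM1.S, a difference of 3.49 ± 0.45. BCL2 had a log2 fold change of 0.50 in JJN3, against -1.54 in MM1.S. MKI67 changed by -0.78 in JJN3, against -2.73 in MM1.S, and 55 of 65 G2/M genes had a positive difference, 0 a negative one. The p53 targets BBC3 and PMAIP1 had log2 fold changes of -0.49 and -0.25 in JJN3, against 1.28 and 1.45 in MM1.S, differences of -1.77 ± 0.23 and -1.70 ± 0.35. Of 49 p53 targets 6 had a positive difference and 10 a negative one, beside the 18.8% and 14% of all genes. DDIT3 changed by -0.28 in JJN3, against 2.71 in MM1.S. Of 41 integrated stress response genes only 3 had a positive difference and 4 a negative one. Their median log2 fold change was -0.57 in JJN3 and -0.51 in MM1.S.

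**Figure D5:**
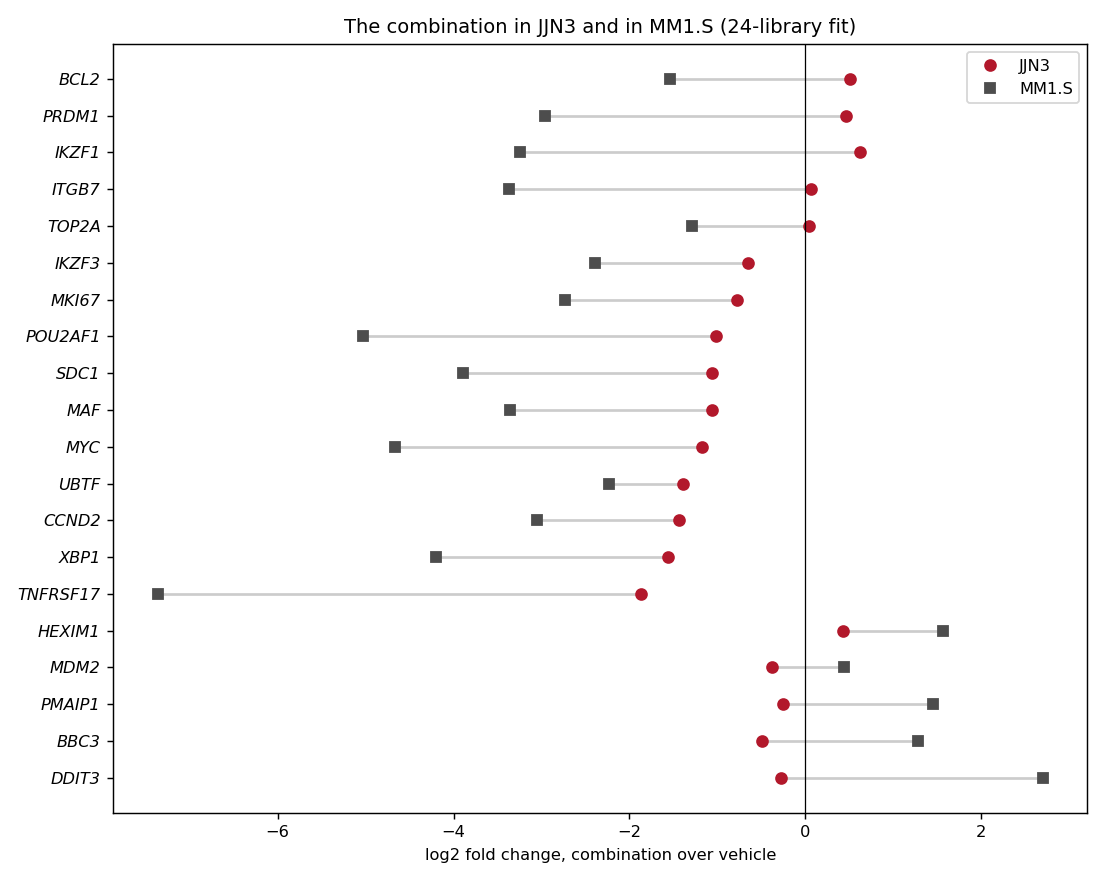
Log2 fold change of both drugs over vehicle for 20 genes in JJN3 and in MM1.S, from the fit of 24 libraries. Of the genes plotted, TNFRSF17 is farthest apart, at -1.86 in JJN3 and -7.37 in MM1.S. The lowest 5 rows, among them DDIT3, BBC3 and PMAIP1, lie lower in JJN3, and the other 15 higher.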

How the data were processed

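For each line the authors deposited raw read counts by NCBI Gene identifier, which the values show to be whole and not normalized. HISAT2 2.2.1, featureCounts 2.0.1, limma 3.50.0 and the builds hg19 and GRCh37 are named in the submitters' processing notes. Neither annotation, strand setting nor multi-mapping rule is given in the sources used here, so overlapping and antisense genes cannot be told apart. Symbols came from a human gene name table. Of 28395 identifiers 27745 matched, and the others held at most 0.0318% of a library's counts.

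Counts were scaled by TMM, filtered with filterByExpr and tested in edgeR 4.0.16 (R 4.3.3) by robust quasi-likelihood F tests, two-sided, over 4 means of the 12 JJN3 libraries (8 residual degrees of freedom, common biological coefficient of variation 0.154). The test over both lines used 24 libraries and 8 means. SEs were computed from the F statistic, and CPM is TMM-scaled. Other fits were limma-voom (limma 3.58.1), DESeq2 1.42.0, other scalings, no filter, the replicate block, and leaving out libraries. The members and gene lists were chosen with earlier results of these data known, and lists were counted, not tested.

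The replicate numbers come from the titles. Deviations from group means correlated at 0.201 to 0.485 between JJN3 libraries of the same number in different groups. On that ground the numbers were taken to pair the samples. Pairs of different numbers all correlated below 0, but centring on group means pushes these values down, so they add no separate support. The block lowered the coefficient of variation to 0.0901. Within each group, the libraries' counts were farther apart than sampling noise allows.

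Genes are named by rule: in the main comparison the 12 largest called rises and falls whose mean log2 CPM reached 3, with no overlap and a symbol, the 2 called members of each list with the smallest adjusted p in each direction, and a fixed panel. In the other comparisons the rule takes 4 per direction and the called panel genes. CDH1, CDKN2B, CDKN2C, HBB, JCHAIN, KRT18, POLR2E and SLAMF7 were named after their values were seen. The treatment tag of the second and the third library of CX-5461 alone in JJN3 differs from their titles in its last digit, and the titles were used. A few genes that the rule takes are not reported here. The tests were checked on simulated data.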

Additional observations from a re-analysis of the deposited data

Results flagged for a closer look

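The 33 genes here are those the naming rule takes for the comparison of JJN3 with MM1.S. Their log2 fold change of both drugs over vehicle differed by edgeR's test of the difference in the fit of 24 libraries. Other genes named above differed as well, such as MZB1 (2.58 ± 0.20) and SAT1 (-3.13 ± 0.27). Differences are JJN3 minus MM1.S, with their SE where given.

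Plasma cell genes made up much of the upper end. TNFRSF17 differed by 5.50, POU2AF1 by 4.01, IKZF1 by 3.87, PRDM1 and ITGB7 by 3.43 each, SDC1 by 2.84, XBP1 by 2.64 and IKZF3 by 1.75. ITGB7 had a log2 fold change of 0.06 in JJN3, against -3.37 in MM1.S. Survival and growth genes followed, with BCL2L1 at 3.52, MYC at 3.49, MAF at 2.30, BCL2 at 2.05, MKI67 at 1.95, CCND2 at 1.62, TOP2A at 1.33, UBTF at 0.84 and TOP2B at 0.79. All of them were higher, or fell less, in JJN3.

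At the lower end stood the p53 targets BBC3 (-1.77), PMAIP1 (-1.70) and MDM2 (-0.82), the stress factor DDIT3 (-2.99), HEXIM1 (-1.14) and HDAC2 (-0.47). These are single genes: of 49 p53 targets 6 had a positive difference and 10 a negative one. Of 41 integrated stress response genes 3 had a positive difference and 4 a negative one. Over all genes the shares were 18.8% and 14%. The call of HDAC2 was lost without the first JJN3 combination library, the second JJN3 vehicle library or the third MM1.S combination library (adjusted p = 0.074, 0.103 and 0.0542). HEXIM1, which holds the elongation factor P-TEFb inactive, had a log2 fold change of 0.43 in JJN3, against 1.57 in MM1.S. MALAT1, a nuclear long noncoding RNA, averaged 11304 ± 2767 CPM with both drugs and 7413 ± 2541 CPM with vehicle in JJN3, and 71471 ± 9721 CPM with both drugs and 5776 ± 890 CPM with vehicle in MM1.S (SD, n = 3 each), a difference of -3.02 ± 0.40. The metallothionein MT2A differed by -2.79 and lost its call without the third JJN3 vehicle library (-2.53, adjusted p = 0.0804).

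Among the flagged genes the most extreme fitted values came mostly from genes at 0 counts in 1 line's vehicle libraries. These values depend on the prior count and are no bound. CGREF1 (-10.54), KISS1R (-8.25), ARRDC2 (-7.59) and MLC1 (-6.80) had 0 CPM in MM1.S vehicle, and CD40 (7.90), DSP (8.06) and PIMREG (7.03) had 0 CPM in JJN3 vehicle. SEL1L3 (7.14) averaged 2.68 CPM with both drugs and 0.0601 CPM with vehicle in JJN3.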

How the results depend on the processing

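The count for both drugs against vehicle stayed within 1.5 times under every alternative, from 3492 to 6104, and 0 of 188 named genes reversed. Single-library calls were less firm: 22 named genes lost theirs without the first combination library and 14 without the third vehicle library. Without the libraries numbered 2, 5 deacetylase and 12 immediate early genes rose, and 55 ribosome biogenesis and 24 G1/S genes fell. Counts under 5 in a list often moved by over 1.5 times on leaving out 1 library. Both drugs against panobinostat, with 103 genes, gave 439 without the low count filter, 262 by DESeq2 and 68 without the libraries numbered 2, the last chosen after seeing the data. Leaving out 1 library gave 0 to 105, with 57, 22 and 65 without the first, the second and the third panobinostat library and 51 without the third combination library. Departure from additivity, with 0 genes, gave 46 without the filter and 19 by DESeq2, and 0 to 1 on leaving out 1 library. With the replicate block, which pairs same-numbered libraries, the counts were 1399 against panobinostat and 105 for additivity. The count of genes that differ between lines ranged from 3685 to 5197. The cause of these moves was not tested. Depth limits genes near 0 counts under vehicle, for which only bounds or wide ratios can be given.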
